A study of Daphnia magna with 36 samples.

Results

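Adult females of the water flea Daphnia magna, a small crustacean of ponds that is a standard animal of toxicity testing, were exposed for 24 h to 9.0 mg/L zinc oxide nanoparticles (ZnO NP), the level the labels call the LC25, and their RNA was compared with that of unexposed animals on 2-colour arrays. These were the arrays titled with that toxicant and level, 6 of the 36 arrays of the series, and they came from 4 of its 23 separately numbered exposures. Exposures 2 and 3 were each measured on a pair of arrays with the dyes Cy5 and Cy3 exchanged. Exposures 1 and 4 were each measured on a single array with the exposed RNA in Cy5. Each RNA sample was pooled from 16 animals that were 10 days old and kept at 25 °C, so differences between single animals were averaged within a sample. The unexposed animals were laboratory controls of the same age and sex, also pooled by 16. The labels do not say whether exposures had control RNA of their own.

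The other groups used here were ZnO NP at 1/10 LC50 (2.2 mg/L, 4 exposures), zinc sulphate (ZnSO4, a soluble salt) at the LC25 (0.91 mg/L, 5 exposures), and silica nanoparticles (SiO2 NP) at the LC25 (5.1 mg/L, 4 exposures). Concentrations thus differed between toxicants, and the levels were matched by toxicity. ZnSO4 at 1/10 LC50 (0.13 mg/L) and SiO2 NP at 1/10 LC50 (1.4 mg/L), with 3 exposures each, entered the fit and are shown beside single probes. The study asked whether the particles act on gene expression as dissolved zinc does.

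Zinc is an essential metal that cells hold within narrow limits by transporters and by binding proteins such as metallothioneins, and an excess of it disturbs other metal-dependent proteins. Zinc oxide particles release zinc ions into water, and Daphnia, a filter feeder, also takes up the particles themselves. A whole-animal sample mixes gut, ovary, carapace and muscle, so a change in the number of cells of one kind and a change in RNA per cell cannot be told apart. The array features, called probes here, carry plate positions as names, and no gene is tied to a probe in the files. Of the 7680 probe names, 0 were found in the organism's table of genes. The results therefore describe probes and no pathway.

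The deposited values are log ratios of the 2 RNAs of an array, read here as log2, so that a ratio of 1 or -1 is a 2-fold difference. Whether exposed or unexposed RNA is the numerator is not given in the sources used here. Ratios are therefore called positive or negative, and turning every sign would exchange those words and leave each test as it is. On the 6 arrays the medians lay between -0.06 and 0.03.

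The arrays of this group held fewer values than most. The single array of exposure 4 had a value for 46.7% of probes, and that of exposure 1 for 73.5%. In exposure 2 the share was 76.9% with the exposed RNA in Cy5 and 57.8% in Cy3, and in exposure 3 it was 49.1% in Cy5 and 75.1% in Cy3. The other 30 arrays had a median of 82.6% (range 58.4% to 90.5%). No probe had values on fewer than 3 of the 6 arrays; 1738 probes had none here and 2570 had all 6, which is 33.5% of probes against 44.4% to 65.7% in the other groups. Ratios beyond 2-fold made up 1.14% of values in exposure 4, the lowest of the 6 arrays, and 7.19% on the Cy5 array of exposure 3, the highest.

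Both dye-swapped pairs gave like values for the same exposure. Across 4416 probes with a value on both arrays of exposure 2, Pearson's r was 0.570 and 63.8% of probes had one sign on both arrays. For exposure 3, r was 0.715 over 3696 probes, with 72.9% of one sign. In contrast, values of different exposures were nearly unrelated. The 6 pairs of exposure means correlated between 0.00 and 0.22 across probes, and single arrays of different exposures between -0.02 and 0.29 with the same dye orientation (7 pairs) and between 0.01 and 0.17 with opposite orientation (6 pairs). The 2 dye-swapped pairs thus lay above every pair of arrays from different exposures; the single arrays of exposures 1 and 4 had no second array to be set against. Probes of an array share its RNA and hybridisation, and the coefficients are given as descriptions. The difference between the Cy5 and the Cy3 array, which holds any dye effect of a probe, correlated at only -0.05 between exposures 2 and 3 (3351 probes).

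**Figure D1:**
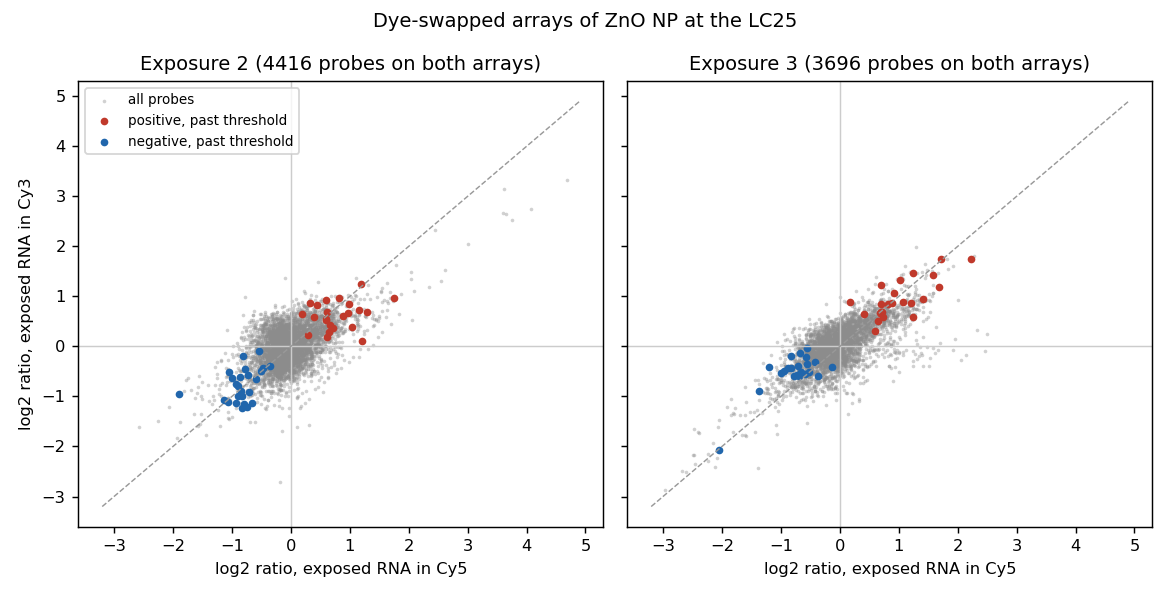
Log2 ratios of the dye-swapped arrays of ZnO NP at the LC25, with the array that carried exposed RNA in Cy5 on the horizontal axis and that in Cy3 on the vertical axis, for exposure 2 (left, r = 0.570) and exposure 3 (right, r = 0.715). Each grey point is 1 probe, red and blue points are probes past the threshold with a positive or negative mean ratio, and the dashed line marks equal values; all coloured points lie in the quadrants of one sign.

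The largest ratios of the group were opposite in sign between exposures. In exposure 2, 23 probes from 11 plates had a mean ratio above 2, which is a 4-fold difference, and 22 of these 23 were negative in exposure 3, where 19 lay below -1. Their median was -0.71 in exposure 1 (20 of 23 negative), 2.82 in exposure 2, -2.04 in exposure 3 and -0.22 in exposure 4 (15 with a value). The median in exposure 2 describes how they were chosen. Values of the other exposures did not enter that choice, which can still favour probes that vary widely in every exposure. Both dyes gave these signs: the median was 2.65 on the Cy3 array (9 probes with a value) and 2.84 on the Cy5 array of exposure 2, against -2.03 and -2.10 on the Cy3 and Cy5 arrays of exposure 3. For the 9 probes with a value on both arrays of exposure 2, the Cy5 median was 3.61. The others of the 23 were chosen on their Cy5 value alone.

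The probe with the highest ratio of all, P13AA7, shows the swing on single arrays; it was singled out after its values were seen. It had -0.77 in exposure 1, 3.34 (Cy3) and 4.68 (Cy5) in exposure 2, -2.87 (Cy3) and -2.96 (Cy5) in exposure 3 and -0.08 in exposure 4. Its exposures averaged 0.06 ± 2.89 (SD, n = 4), so the group mean says nothing of how far it moved in a single exposure. Over the 23 probes the SD between the exposures had a median of 2.36, and of the 22 that were tested 0 passed the threshold of the limma test below (lowest adjusted p = 0.513). Since 1.09% of all tested probes passed it, a count of 0 among 22 does not set them apart.

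These probes varied as a block. Over all 23 exposures, pairs of the 23 probes correlated with a median r of 0.94 (231 pairs with enough values, lowest 0.57), and over the 19 exposures of the other 5 groups, which did not choose them, with a median of 0.92. Of 5223 probes that could be compared with P13AA7 over at least 20 exposures, 30 had r above 0.9, on 11 plates. Whether such probes stand for one transcript is not given in the files. Of the 22 probes below -2 in exposure 3, 21 were positive in exposure 2, and 13 of the 22 were among the 23 probes. More widely, 64 probes exceeded 2-fold in both exposures, and 51 of them were positive in exposure 2 and negative in exposure 3. Another 10 were positive and 3 negative in both. The 51 include the 19 of the 23 probes that lay below -1 in exposure 3. Over all 5830 probes with a value in both exposures, r was 0.03.

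**Figure D2:**
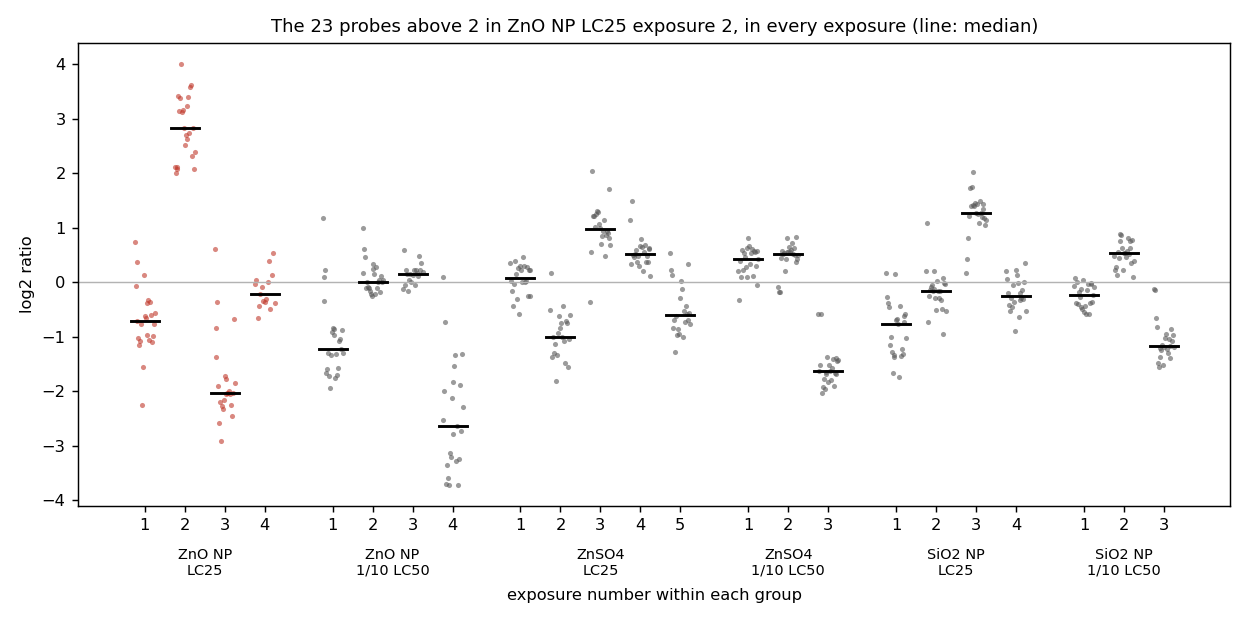
Log2 ratios of the 23 probes above 2 in exposure 2 of ZnO NP at the LC25, in each of the 23 exposures of the series, with the exposure number on the horizontal axis and groups side by side; each point is 1 probe, red for ZnO NP at the LC25, and black lines are medians. The medians of ZnO NP at the LC25 run from 2.82 in exposure 2 to -2.04 in exposure 3, and other groups also hold exposures of both signs.

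P13AA7 also bears on how the deposited ratios were oriented. It had one sign on both arrays of all 12 dye-swapped pairs outside exposure 2 of this group, including the 4 pairs whose arrays correlated negatively over all probes. Of 262 values of the 23 probes that could be compared between the arrays of those pairs, 224 had one sign. Values given as Cy5 over Cy3 would have had opposite signs on such arrays. The ratios were therefore taken as turned to one direction of exposure, and the Cy5 over Cy3 reading was kept as an alternative.

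Against this spread between exposures, the mean log ratio of each probe was tested against 0. Arrays of one exposure were averaged, all 6 groups were fitted together in limma with a dye term for single arrays, and p-values were adjusted by Benjamini-Hochberg over 5495 probes, those measured in 2 or more exposures of each group. A total of 60 probes passed an adjusted p of 0.05, which is 1.09% of those tested, 31 of them positive (0.564%) and 29 negative (0.528%). Their absolute ratios ran from 0.48 to 1.64 with a median of 0.71 (1.64-fold), against 0.15 over all probes tested, and 10 exceeded 2-fold. The median standard error was 0.15 in both sets. The last probe inside the threshold had an adjusted p of 0.04998 (ratio -0.59 ± 0.14, fitted log2 ± SE) and the first outside 0.0502 (0.68 ± 0.17).

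That count rested on the spread shared by all groups and on single exposures. With the plain mean of the 4 exposures tested on its own, 0 probes passed in limma (658 with an unadjusted p below 0.05, lowest adjusted p = 0.328). Without exposure 1 there were 2 probes past the threshold, without exposure 2 also 2, without exposure 3 there were 11, and without exposure 4 there were 91, of which 50 were among the 60. Without the dye term 122 passed, 52 of them among the 60.

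All 60 had a value in exposures 1, 2 and 3, and 39 also in exposure 4. On every array with a value, 59 of the 60 had the sign of their mean, which passing the test favours. The exception, P11BF8, was negative in exposures 1 to 3 and stood at 0.04 in exposure 4; it is named because it is the only one. All 48 that had values on both arrays of exposure 2, and all 45 in exposure 3, had one sign in both dyes.

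Positive and negative probes leaned on different exposures. The 31 positive probes had a median ratio of 0.52 in exposure 1, 0.67 in exposure 2, 0.87 in exposure 3 and 0.33 in exposure 4. For the 29 negative probes the medians were -1.06, -0.81, -0.59 and -0.75 in the same order. Among the 25 positive probes with all 4 exposures, 19 were largest in exposure 3 and 16 smallest in exposure 4. Among the 14 negative probes with all 4, 10 were largest in size in exposure 1 and 11 smallest in exposure 3. These medians come from the values that chose the probes and were not tested.

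**Figure D3:**
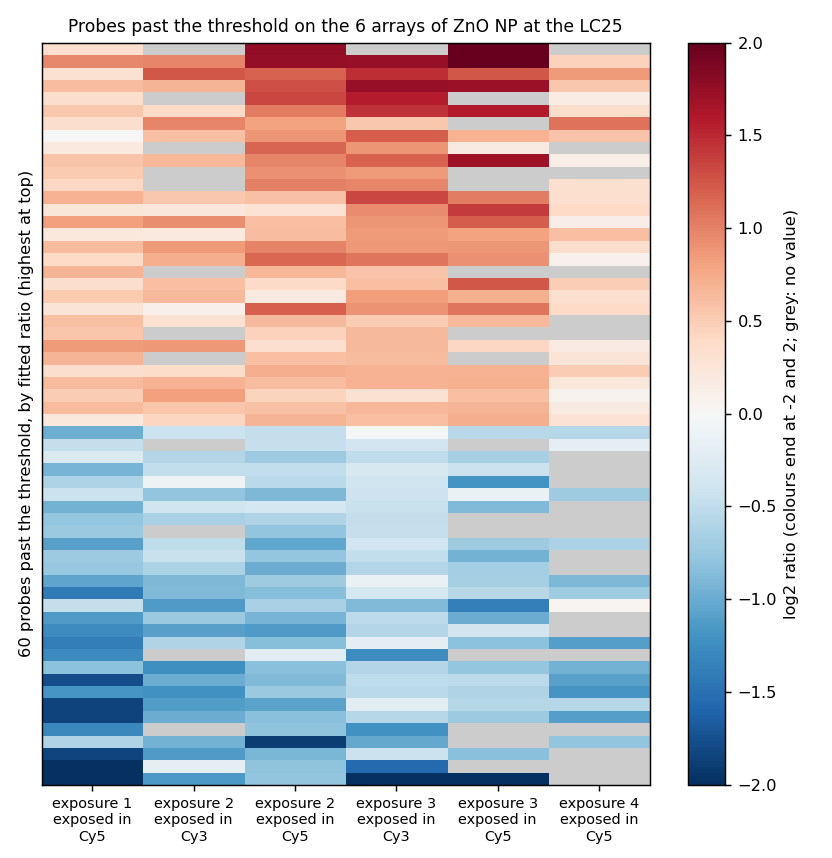
Log2 ratios of the 60 probes past the threshold (rows, highest fitted ratio at the top) on the 6 arrays of ZnO NP at the LC25 (columns, with exposure number and the dye of the exposed RNA); red is positive, blue negative and grey no value. The 31 positive rows are deepest on the arrays of exposure 3, with a median exposure mean of 0.87, and the 29 negative rows on the array of exposure 1, with a median of -1.06.

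Some of the 60 probes varied together over the whole series. Correlations above 0.9 over 20 or more exposures joined 13 of them into 4 groups, and 47 probes were in no group at that limit. Whether those 47 were separate patterns was not tested. The median r between pairs was 0.49 among the positive and 0.41 among the negative probes. It was 0.06 over all pairs of the 60 and 0.001 over all tested probes. The 4 exposures that chose the probes are among those correlated. Having passed the same test in the same direction favours such correlations. The largest was a group of 6 negative probes on 4 plates, which correlated pairwise between 0.87 and 0.97 and had fitted ratios from -0.97 to -0.71. Its median was -1.34 in exposure 1, -0.92 in exposure 2, -0.50 in exposure 3 and -1.08 in exposure 4, so all 4 exposures were negative. Group means of the 6 probes had a median of -0.57 under ZnO NP at 1/10 LC50, -0.95 for LC25 ZnSO4 and -0.18 for LC25 SiO2 NP. Of the other groups, 1 held 3 positive probes and 2 held a pair of negative ones each. Over all tested probes 0.0194% of pairs correlated as closely; among the 60 probes 0.576% did, and these pairs had been chosen by the same test.

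By the rule for naming, the probes with the largest fitted ratios, at least 3 exposures with a value and one sign in all of them are given one by one. P9DH12 had the largest positive ratio. It was 0.34 in exposure 1, 1.77 in exposure 2 and 2.28 in exposure 3, with no value in exposure 4. Exposures 2 and 3 were thus high and exposure 1 was not. All 3 values came from arrays with the exposed RNA in Cy5, so an effect of the dye and one of the exposure cannot be told apart for this probe; it was the only one of the 60 measured in a single dye orientation. The mean was 1.46 ± 1.00 (SD, n = 3) and the fitted ratio 1.61 ± 0.30 (SE, adjusted p = 0.0247 in limma, 3.05-fold). In that fit the dye term was 0 for exposures 2 and 3, as for any pair, so their Cy5 values entered uncorrected. Without the 4 arrays of the series with the fewest values its ratio was 0.58 (adjusted p = 0.589), and without exposure 2 or 3 the adjusted p was 0.156 and 0.199.

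P10DH11 was measured on all 6 arrays and was positive on each. It had 0.95 in exposure 1, 0.98 (Cy3) and 1.76 (Cy5) in exposure 2, 1.74 (Cy3) and 2.23 (Cy5) in exposure 3, and 0.47 in exposure 4. The exposures averaged 1.19 ± 0.64 (SD, n = 4), with a fitted ratio of 1.18 ± 0.28 (SE, adjusted p = 0.0441 in limma, 2.27-fold). Exposure 3 was the highest and exposure 4 the lowest in both positive probes where they had a value. The call was lost without exposure 1, 2 or 3 (adjusted p = 0.0748, 0.169 and 0.292).

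P4AB6 had the largest negative ratio. It stood at -2.16 in exposure 1, at -1.15 (Cy3) and -0.79 (Cy5) in exposure 2, and at -2.07 (Cy3) and -2.05 (Cy5) in exposure 3, with no value in exposure 4. Exposures 1 and 3 were close to each other and exposure 2 was nearer to 0. The mean was -1.73 ± 0.66 (SD, n = 3) and the fitted ratio -1.64 ± 0.32 (SE, adjusted p = 0.0258 in limma, 3.12-fold). The call was also lost here when exposure 1, 2 or 3 was left out, with adjusted p = 0.0796, 0.0817 and 0.172 and ratios between -2.01 and -1.41.

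A6M17 followed with -2.003 in exposure 1, -0.20 (Cy3) and -0.81 (Cy5) in exposure 2, and -1.55 (Cy3) in exposure 3; it had no value on the Cy5 array of exposure 3 or in exposure 4. As for P4AB6, exposure 2 was the one nearest to 0. The mean was -1.35 ± 0.77 (SD, n = 3) and the fitted ratio -1.30 ± 0.27 (SE, adjusted p = 0.0282 in limma, 2.46-fold). Without exposure 1 it was -1.03 (adjusted p = 0.114), and without exposure 3 -1.16 (adjusted p = 0.197).

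**Figure D4:**
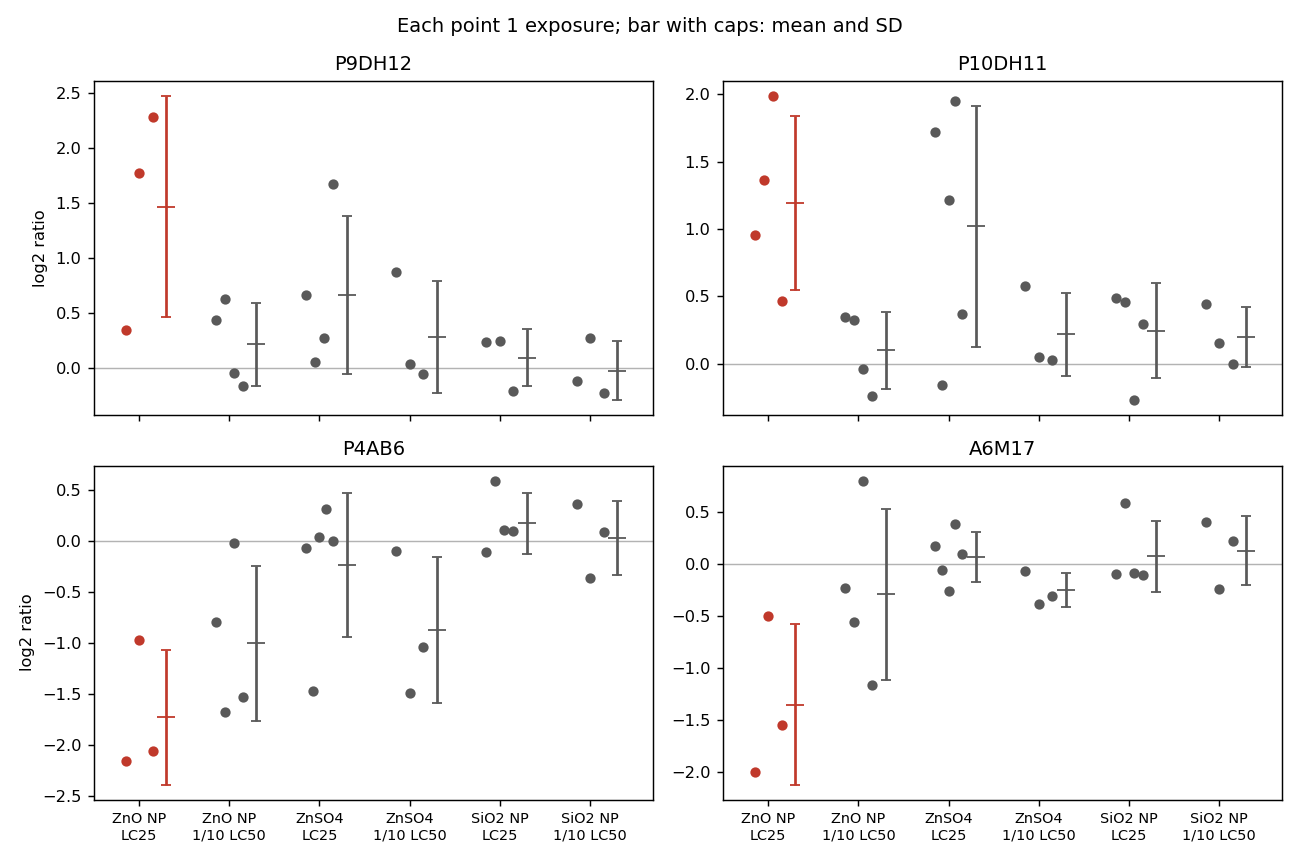
Log2 ratios (vertical axes) of the 4 probes with the largest mean ratios under ZnO NP at the LC25, 1 point for each exposure, red for that group and grey for the other 5 groups; bars with caps are the mean and SD. P4AB6 averaged -1.73 under ZnO NP at the LC25, against -1.01 at the lower level, whereas P10DH11 averaged 1.19 under ZnO NP and 1.02 under ZnSO4 at the LC25.

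Set beside ZnSO4 at the same toxicity level, the 4 probes fell into different patterns. P10DH11 had a mean of 1.19 ± 0.64 (SD, n = 4) with ZnO NP, against 1.02 ± 0.90 (SD, n = 5) with ZnSO4, where the exposures had 1.72, -0.16, 1.22, 1.95 and 0.37. The groups overlapped, with a fitted difference of 0.17 ± 0.35 (SE, adjusted p = 0.826 in limma). For P9DH12 the ZnO NP exposures averaged 1.46 ± 1.00 (SD, n = 3), against 0.66 ± 0.72 (SD, n = 4) in those of ZnSO4, also overlapping (difference 0.62 ± 0.40, adjusted p = 0.413).

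For the negative probes the groups lay further apart. A6M17 was below -0.50 in all 3 exposures of ZnO NP and between -0.26 and 0.39 in the 5 of ZnSO4, without overlap of exposure values. Array by array it overlapped, with -0.20 on the Cy3 array of ZnO NP exposure 2 and -0.26 in ZnSO4 exposure 3. The difference was -1.43 ± 0.34 (SE, adjusted p = 0.0783 in limma). P4AB6 had a mean of -1.73 ± 0.66 (SD, n = 3) with ZnO NP, against -0.24 ± 0.70 (SD, n = 5) with ZnSO4, where exposure 2 alone was low at -1.47 and the others lay between -0.07 and 0.32. Its difference was -1.51 ± 0.40 (SE, adjusted p = 0.103). At 1/10 LC50 of ZnSO4 P4AB6 was negative in 3 of 3 exposures (-0.09, -1.50 and -1.04), overlapping with ZnO NP at the LC25. These probes were chosen for their size under ZnO NP, which raises such differences, and none passed the threshold.

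Across all probes, 2 of 5495 differed between ZnO NP and ZnSO4 at the LC25, or 0.0364% of those tested, 1 in each direction (0.0182% each); at an unadjusted p below 0.05 it was 1008 (18.3%), of which 613 were more positive and 395 more negative under ZnO NP. Both were also among the 60. They are named because the count is small, after their values were seen. A1A4 was negative on every array of ZnO NP that had a value: -0.73 in exposure 1, -0.45 (Cy3) and -0.77 (Cy5) in exposure 2, and -0.50 (Cy3) and -0.94 (Cy5) in exposure 3. Under ZnSO4 its 5 exposures lay between 0.00 and 0.42, so the groups did not overlap, which passing the test of the difference favours. The fitted difference was -0.87 ± 0.15 (SE, adjusted p = 0.0314 in limma). P7BE6 had 0.67, 0.60, 0.64 and 0.26 in the 4 exposures of ZnO NP and lay between -0.76 and 0.15 under ZnSO4, again without overlap (difference 0.90 ± 0.15, adjusted p = 0.0314). The lower ZnSO4 level did overlap with ZnO NP at the LC25 in both probes: at 1/10 LC50 of ZnSO4 A1A4 had -0.14, 0.02 and -0.68, and P7BE6 had 0.48, 0.16 and 0.15. A1A4 was also negative in 4 of 4 exposures of SiO2 NP at the LC25 and in 4 of 4 of ZnO NP at 1/10 LC50. P7BE6 was positive in 4 of 4 of SiO2 NP and in 2 of 4 at the lower ZnO NP level. These counts are of exposure means, and single arrays did not all share the sign. In exposure 3 of SiO2 NP at the LC25, A1A4 had -0.52 (Cy3) and 0.30 (Cy5), and P7BE6 had 0.94 (Cy3) and -0.65 (Cy5). A1A4 also had 0.08 on the Cy5 array of exposure 1 at the lower ZnO NP level. Neither probe passed in limma against SiO2 NP (adjusted p = 0.460 and 0.560) or the lower ZnO NP level (adjusted p = 0.94995 for both).

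Both calls were lost under 12 of 20 alternatives, 7 of them the removal of 1 exposure, where each adjusted p lay between 0.0758 and 0.136. With plate medians subtracted, the difference was -0.70 for A1A4 and 0.84 for P7BE6 (adjusted p = 0.1145 and 0.105 in limma). Without ZnSO4 exposure 3 the count was 677, and without ZnO NP exposure 4 it was 11. Of the 35 probes with a fitted difference beyond 2-fold between the 2 zinc forms, 34 were more negative under ZnO NP and 1 more positive, which is the opposite balance to that of the 1008 probes. Neither division was tested.

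Against silica particles, 0 of 5495 probes passed in limma (447 with an unadjusted p below 0.05, or 8.13%; lowest adjusted p = 0.185). The median 95% confidence half-width of a difference was 0.40 on the log2 scale before any adjustment for the number of probes. P4AB6 was among the probes with the lowest p-values, with -1.73 ± 0.66 (SD, n = 3) under ZnO NP and 0.17 ± 0.30 (SD, n = 4) under SiO2 NP (difference -1.95 ± 0.42, SE, adjusted p = 0.185). A6M17 differed by -1.45 ± 0.35 (adjusted p = 0.295), P9DH12 by 1.37 ± 0.41 (adjusted p = 0.349) and P10DH11 by 0.95 ± 0.37 (adjusted p = 0.481). The choice of these probes by their size under ZnO NP raises such differences here too. The exposures of A6M17 lay between -0.11 and 0.59 under SiO2 NP. Its arrays overlapped, with -0.48 on the Cy5 array of SiO2 NP exposure 1 and -0.20 on the Cy3 array of ZnO NP exposure 2.

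Between the LC25 and 1/10 LC50 of ZnO NP, 0 of 5495 probes passed in limma (254 with an unadjusted p below 0.05, or 4.62%; lowest adjusted p = 0.94995), with a median confidence half-width of 0.46. The single arrays had the exposed RNA in Cy5 at the LC25 (exposures 1 and 4) and in Cy3 at 1/10 LC50 (exposures 3 and 4), so exposure values of the levels differ in dye orientation too. The fitted differences carry the dye term, which does not cover a probe with a value on only 1 array of a pair. P4AB6 had -0.79, -1.68, -0.02 and -1.53 in the 4 exposures at 1/10 LC50, all negative and overlapping with the LC25 (difference -0.50 ± 0.46, SE, adjusted p = 0.966). P10DH11 lay between 0.47 and 1.99 in the exposures at the LC25, against -0.24 to 0.35 at 1/10 LC50 (difference 1.07 ± 0.42, adjusted p = 0.94995). Array by array it overlapped: at 1/10 LC50 it had 1.34 (Cy5) and -0.64 (Cy3) in exposure 1 and 0.61 (Cy5) and 0.04 (Cy3) in exposure 2, and the Cy5 values lie within the LC25 range of 0.47 to 2.23. P9DH12 lay between -0.16 and 0.63 there and A6M17 between -1.17 and 0.80, both overlapping with the LC25.

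Probes came from 2 sets of plates, whose ratios under ZnO NP at the LC25 had different medians. The identifiers begin with A (7 plates, 2688 probes) or P (13 plates, 4992 probes), and what these sets contain is not given in the sources used here. Only 46.7% of A-plate probes could be tested, against 84.9% of P-plate probes. Past the threshold were 16 A-plate probes (1.27% of 1256 tested) and 44 P-plate probes (1.04% of 4239), both shares near the 1.09% of all tested. Of the 16 A-plate probes 14 were negative, whereas of the 44 P-plate probes 29 were positive and 15 negative. Over all tested probes 30.8% of the A-plate ratios were positive, against 52.3% of the P-plate ratios, with median ratios of -0.12 and 0.01.

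The median of the A plates minus that of the P plates was negative in 4 of 4 exposures and averaged -0.16 ± 0.10 (SD, n = 4; range -0.29 to -0.07). An exact two-sided sign-flip test cannot go below p = 0.125 with 4 exposures, and gave that value. All 3 exposures of ZnSO4 at 1/10 LC50 were negative too, with a mean of -0.09 ± 0.07 (SD, n = 3). In exposure 2 of ZnO NP at the LC25 the 2 dyes did not give one sign, with -0.23 on the Cy5 array and 0.11 on the Cy3 array. At the LC25 the same measure was 0.19 ± 0.22 for ZnSO4 (SD, n = 5) and -0.14 ± 0.07 for SiO2 NP (SD, n = 4), and it was 0.03 ± 0.08 (SD, n = 4) for the lower ZnO NP level. Over the series the measure was lower on the Cy5 than on the Cy3 array in 11 of 13 dye-swapped pairs. The single arrays were Cy5 for ZnO NP at the LC25 and Cy3 for its lower level, and neither the count of signs nor the tests that follow carry a dye term, so dye and level cannot be told apart there. Exact two-sided permutation tests of ZnO NP at the LC25 against ZnSO4 at the LC25, SiO2 NP at the LC25 and the lower ZnO NP level, in that order, gave p = 0.0476, 0.657 and 0.0571, or 0.0857, 0.657 and 0.0857 adjusted over the 3 tests, so none passed. The measure was chosen after the values were seen. With plate medians subtracted from each array, 103 probes passed in the test against 0, 64 positive and 39 negative; 52 were among the 60.

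**Figure D5:**
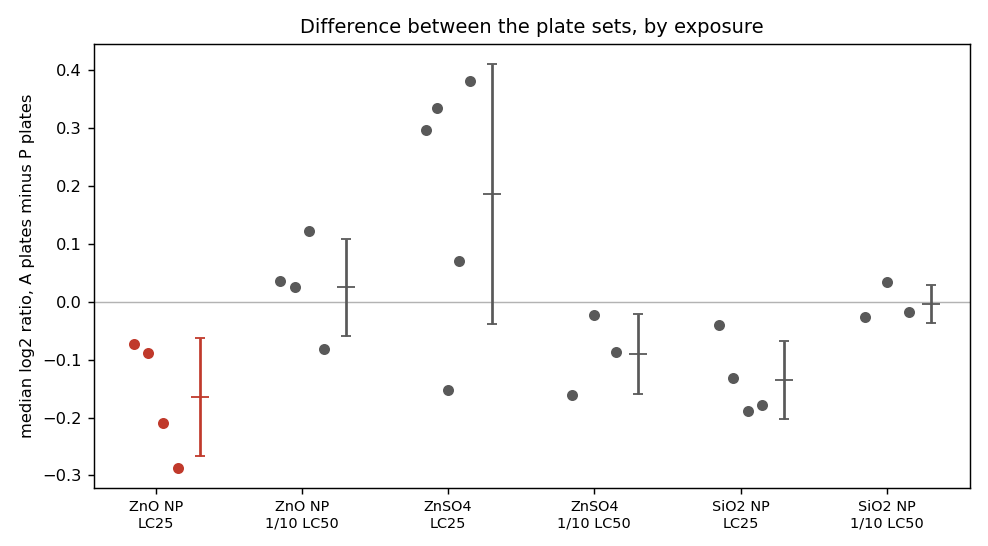
Median log2 ratio of A-plate probes minus that of P-plate probes (vertical axis), 1 point for each exposure, red for ZnO NP at the LC25 and grey for the other 5 groups; bars with caps are the mean and SD. The 4 exposures of ZnO NP at the LC25 lie between -0.29 and -0.07, all below 0, as do the 4 of SiO2 NP at the LC25 and the 3 of ZnSO4 at 1/10 LC50.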

How the data were processed

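The authors deposited 1 log ratio per probe and array, read here as log2; its base, numerator, scanner, background correction, normalization and spot filter are not given in the sources used here. No probe had values on fewer than 3 arrays of a group in which it had any. The avearrays function reduced the 36 arrays to 23 exposures, which were fitted with lmFit and eBayes of limma 3.58.1 in R 4.3.3. The dye term took the value 1 where Cy5 alone marked the exposed RNA, -1 where Cy3 alone did, and 0 for dye-swapped pairs. It was set for each exposure and not for each probe. A probe with a value on only 1 array of a pair thus also had 0, and any dye effect in that value was left uncorrected. A difference between groups was a coefficient of the refitted model. All tests were two-sided. No columns were left unused, and no arrays held identical values. The scripts were tested on simulated data. Alternatives were tried for the dye term, the samples fitted, scaling, filters, prior, block, dye orientation, direction, plates and each exposure. Named were the 2 largest positive and 2 largest negative probes past the threshold with at least 3 exposures of one sign; a gene name, which the rule asked for first, was not to be had. Gene lists were therefore not used. The probes, rules and lists were chosen with earlier results of these data known. The number of exposures, the values missing in them and the spread between them limit the precision; spot brightness was not used here.

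Same-numbered exposures of different groups did not all deviate together. Correlations of ZnO NP with ZnSO4 at the LC25 lay between -0.28 and 0.29 for the same number (median 0.167, against -0.043 for other numbers), so not every pair exceeded 0.1, and exposure numbers were not used for pairing.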

Additional observations from a re-analysis of the deposited data

Results flagged for a closer look

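Exposure 4 of ZnO NP at the LC25 had values for 46.7% of probes, below the other exposures of the group (73.5% to 77.2%). Exposures 2 and 3 count a probe measured on either array of a pair, whereas exposure 4 is 1 array; among single arrays of the group 49.1% and 57.8% lay near it. P4AB6 in exposure 2 of ZnSO4 at the LC25 was -1.47, far below the other 4 exposures. A6M17 in exposure 2 of SiO2 NP at the LC25 was 0.59, far above the other 3. These are the 3 cases among 26 groups of 4 or 5 exposures looked at in this way; chance gives about 1 in 20. A1A4 differed between ZnO NP and ZnSO4 at the LC25 by a fitted -0.87 and P7BE6 by 0.90, by the test of the difference itself.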

How the results depend on the processing

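For the test against 0, the count of 60 probes became 122 without the dye term, 492 with single arrays fitted and a random block by exposure (344 positive, 148 negative; the consensus correlation was -0.02, so arrays of one exposure counted nearly as independent), 559 with dye-swapped pairs only (451 and 108), 92 without the 4 arrays with the fewest values and 103 with plate medians subtracted (64 and 39). It was 2 with values read as Cy5 over Cy3, 0 with only this group fitted and no dye term, and 0 with arrays scaled to one spread; leaving out 1 exposure gave 2 to 91. In limma these 2 settings with 0 had 658 and 546 probes at an unadjusted p below 0.05. Exposures with the same number did not all deviate together, and with the replicate block (exposure number) 43 passed, 10 positive and 33 negative, 28 of them among the 60. Of the ZnO NP exposures, 1 of 4 correlated best with its own number in ZnSO4, 0 of 4 in SiO2 NP and 1 of 4 in ZnO NP at 1/10 LC50. All 60 probes had their sign under each alternative, except that 5 turned with values read as Cy5 over Cy3. The alternatives refit the values that chose the probes, and 59 of the 60 had the same sign on every array, so a kept sign is no separate support.

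The 2 probes that differed from ZnSO4 became 6 without the dye term, 178 with the random block, 28 without the 4 arrays with the fewest values, and 0 with the 2 groups alone, scaled arrays, Cy5 over Cy3, subtracted plate medians or the replicate block; leaving out 1 exposure gave 0 to 677. The 0 probes against SiO2 NP became 19 with the random block and 1 with the replicate block (P12CF5, -0.89), and 0 to 2 without 1 exposure. The 0 between ZnO NP levels became 22 with dye-swapped pairs only. The causes were not tested. P9DH12, P10DH11, P4AB6 and A6M17 had their sign under all 16 alternatives, which their choice by the same sign in each exposure favours. They lost the call under 6, 7, 6 and 5. The A-plate difference stayed between -0.19 and -0.12. No count with dye-swapped pairs was made against ZnSO4, which has 1 pair. Over the 5495 probes tested against 0, of which 3289 had values in all 4 exposures, the median unadjusted confidence half-width was 0.31. The smallest ratio past the adjusted threshold was 0.48 in size.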

Other observations

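The 23 probes that swung between exposures 2 and 3 of ZnO NP at the LC25 also had medians of both signs within each of the other groups. Under ZnO NP at 1/10 LC50 their medians were -1.22, 0.01, 0.16 and -2.64 in exposures 1 to 4. Under ZnSO4 at the LC25 they were 0.08, -0.995, 0.97, 0.52 and -0.60, and under SiO2 NP at the LC25 -0.76, -0.16, 1.27 and -0.25. In the groups with 3 exposures (1/10 LC50) ZnSO4 gave 0.42, 0.53 and -1.63, whereas SiO2 NP gave -0.23, 0.54 and -1.17. The probe with the highest ratio, P13AA7, reached -3.71 on the array of exposure 4 of ZnO NP at 1/10 LC50 and, in SiO2 NP exposure 3 at the LC25, 1.97 (Cy5) and 2.08 (Cy3).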
